A study of Mus musculus with 24 samples.

Results

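The 12 T cell sufficient B lymphomas of this series were compared with each other. They come from C57BL/6 mice that carry a Bcl6 transgene (Bcl6Tg/+) and have T cells, and they make up 12 of the 24 samples. Of the others, 11 are lymphomas of Bcl6Tg/+CD3Epsilon-/- mice, which lack T cells, and they serve here only as a reference. The last sample is a repeat library of 1 T cell sufficient lymphoma. All groups share the Bcl6 transgene, all are purified B lymphoma cells from the spleen, and the labels give no age, sex, transgene promoter or other treatment. Members were taken by their label, with earlier results of these data known. The lymphomas are called S1 to S12 and the reference lymphomas D1 to D11. S1 to S7 are in batch 1 of the labels and S8 to S12 in batch 2, called run 1 and run 2 here. The labels number the lymphomas separately but do not say that each came from its own mouse, so the p-values measure the spread between these lymphomas.

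BCL6 is a transcriptional repressor that B cells switch on when they enter a germinal centre, the structure in lymph nodes and spleen where they divide fast and mutate their antibody genes. It holds back plasma cell genes such as Prdm1 as well as cell cycle checkpoint genes, and human diffuse large B cell lymphomas often keep it on. A lymphoma grows largely from 1 founder cell, so independent tumours of the same genotype can settle at different stages of the B cell programme, and they can also differ in the other cells that are purified with them.

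Library totals lay between 7.58 M (S3) and 30.6 M (S1) counts, so that 3 counts were worth 0.103 to 0.405 CPM, the count scaled to a common library total. No 2 of the 12 columns were identical, and all 66 pairs differed by more than sampling noise (chi-square test over genes). The defining B cell genes were present in all 12 lymphomas: Cd79a, a signalling chain of the B cell receptor, lay at 478 to 1781 CPM, Ms4a1 (CD20) at 1051 to 3409.9 CPM and Pax5, the B lineage transcription factor, at 56.1 to 195 CPM. Cd3e, the gene deleted in the reference mice, lay between 0 (S3 and S11) and 2.46 CPM here and between 0.721 and 5.77 CPM in the reference, so in these B cell preparations it did not separate the groups and checks no label. The T cell markers that were measured (8 of 18) summed to 105 to 592 CPM, most of it Lck (96.0 to 557 CPM), which B lymphoma cells can also express. Monocyte and macrophage markers (19 of 20 measured) summed to 1100 CPM in S9 and 6506 CPM in S4, with a median of 1996 CPM, and 5989 CPM of the sum in S4 was Apoe. In bulk samples, fewer cells of a type and less RNA per cell cannot be told apart.

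Levels of the sex-linked transcripts differed among the 12. Xist, the RNA that coats the inactive X chromosome, was at 1186 CPM in S8, 1219.8 CPM in S9 and 1341 CPM in S12, at 84.2 to 357 CPM in S1, S3, S10 and S11, and at 1.12 to 5.64 CPM in the other 5. The Y-linked helicase gene Ddx3y was at 0 in S2, S3 and S12 and at 132 CPM in S11. S2 therefore had low Xist and no Ddx3y, while S9, S10 and S11 had both. The labels give no sex, and the part of sex in the differences below was not tested beyond the fits with Xist as a covariate.

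Programmes that set single lymphomas apart among the 12 include the type I interferon response and mitosis. Genes of the first are driven by STAT and IRF factors at interferon-stimulated response elements. Mitosis genes can carry a cell cycle homology region, CCAAT boxes or both. Promoter sequence is shown for 3 interferon-induced genes that were low in some of the lymphomas. These are Ifit1 and Ifit3 of the type I list and Gbp2 of the interferon gamma list. The sequence of 3 mitosis genes whose levels followed Mki67 is also shown. Each is the 250 bases before the transcription start in RefSeq (GRCm38.p6), written 5′ to 3′ on the gene's own strand. Capitals in the interferon-response genes mark the core of the response element, GAAA followed by any 2 bases and GAAA again, on either strand. Ifit1 lies at chr19:34640639-34640888 on the plus strand, Ifit3 at chr19:34583279-34583528 on the plus strand and Gbp2 at chr3:142620413-142620662 on the plus strand.
Ifit1: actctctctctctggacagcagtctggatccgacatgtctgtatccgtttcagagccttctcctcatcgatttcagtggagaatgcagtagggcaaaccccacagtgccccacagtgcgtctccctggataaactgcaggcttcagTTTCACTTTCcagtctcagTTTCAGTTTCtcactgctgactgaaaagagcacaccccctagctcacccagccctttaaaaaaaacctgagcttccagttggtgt
Ifit3: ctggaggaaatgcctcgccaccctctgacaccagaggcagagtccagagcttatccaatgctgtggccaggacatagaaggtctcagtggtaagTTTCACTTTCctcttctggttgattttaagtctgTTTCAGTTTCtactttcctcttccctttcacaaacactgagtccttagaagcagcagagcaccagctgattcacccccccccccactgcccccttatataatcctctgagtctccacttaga
Gbp2: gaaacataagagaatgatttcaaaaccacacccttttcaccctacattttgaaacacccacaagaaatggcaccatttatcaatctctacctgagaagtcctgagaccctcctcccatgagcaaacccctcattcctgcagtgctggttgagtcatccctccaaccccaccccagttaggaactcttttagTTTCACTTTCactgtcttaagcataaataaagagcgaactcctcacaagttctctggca

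In the mitosis genes, capitals mark TTTGAA, the core of the cell cycle homology region, and CCAAT, again on either strand. Ska3 had no CCAAT in its window, and Bub1b and Aurka had no TTTGAA. The windows are chr14:57826164-57826413 on the minus strand for Ska3 (kinetochore attachment), chr2:118597961-118598210 on the plus strand for Bub1b (spindle checkpoint kinase) and chr2:172370571-172370820 on the minus strand for Aurka (spindle pole kinase).
Ska3: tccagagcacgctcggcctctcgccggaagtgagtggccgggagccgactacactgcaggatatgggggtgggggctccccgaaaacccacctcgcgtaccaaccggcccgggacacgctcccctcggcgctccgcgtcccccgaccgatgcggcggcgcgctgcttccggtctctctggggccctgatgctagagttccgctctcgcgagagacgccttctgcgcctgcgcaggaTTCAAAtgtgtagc
Bub1b: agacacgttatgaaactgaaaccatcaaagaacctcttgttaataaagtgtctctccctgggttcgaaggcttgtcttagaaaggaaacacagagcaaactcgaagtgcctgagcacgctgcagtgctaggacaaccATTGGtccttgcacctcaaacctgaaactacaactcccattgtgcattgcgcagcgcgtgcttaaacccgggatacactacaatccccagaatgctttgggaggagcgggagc
Aurka: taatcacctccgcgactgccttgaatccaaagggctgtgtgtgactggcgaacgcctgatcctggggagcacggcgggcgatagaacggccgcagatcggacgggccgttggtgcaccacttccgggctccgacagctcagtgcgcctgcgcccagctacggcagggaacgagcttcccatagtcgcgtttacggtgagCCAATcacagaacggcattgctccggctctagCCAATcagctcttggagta

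Promoter windows were matched by symbol for 8551 of the 11140 genes in the table. The response element core stood in the windows of 10 of 21 matched type I interferon genes (47.6%), against 3.32% of all matched genes. Of 26 matched mitosis genes, 21 (80.8%) had a CCAAT and 9 (34.6%) a TTTGAA, against 40.9% and 12.6% of all matched genes. A TTTGAA can share its last letters with a GAAA, and a match describes the sequence only.

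Variation among the lymphomas was concentrated in a small share of genes. The spread of a gene is given as the SD of its log2 CPM over the 12 lymphomas after removing the mean of each sequencing run. Of 8908 genes whose mean log2 CPM reached 3, the median gene had an SD of 0.34 and the highest of its 12 values was 2.50-fold the lowest. An SD of at least 1 was found in 620 genes (6.96%), and of at least 2 in 67 genes (0.752%). At the other end, Glyr1 lay between 211 and 247 CPM in all 12, with an SD of 0.06. The median biological coefficient of variation estimated by edgeR was 27.2%.

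The genes that varied in 1 run also varied in the other, although each run held different lymphomas. The 100 genes with the largest SD in run 1 had a median SD of 1.51 in the lymphomas of run 2, where the median of all genes was 0.29, and 71 of the 100 reached 1, against 6.12% of all genes. In the reverse direction, the 100 most variable genes of run 2 had a median SD of 1.52 in run 1, and 81 of them reached 1, against 6.54% of all genes. The reference lymphomas took no part in either choice: there the medians were 1.54 and 1.30.

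Gene lists that stand for known programmes differed in how much their genes varied and in how far they varied together (the plot of list spread and list correlation). Some varied together with no strongly varying member. The 31 mitosis genes had a median SD of 0.43 and none reached 1, yet the median correlation between 2 of them across the 12 lymphomas was 0.81. The 29 DNA replication genes had a median SD of 0.33 and a median correlation of 0.68. The median SD of all genes was 0.34. Over all pairs of the 8908 genes the median correlation was 0.00. The mitosis genes were lowest in S10, with a mean deviation of -0.94 log2 units from the mean of its run, and highest in S12 (0.53) and S9 (0.48). Top2a, which untangles replicated DNA, shows the range: it was at 311 CPM in S10 and at 523 to 857 CPM in the other 11.

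Other lists varied strongly with a lower correlation. Of 22 germinal centre genes, 12 reached an SD of 1 (the background is 6.96% of all genes), their median SD was 1.06 and their median correlation was 0.14. Rgs13, a brake on chemokine signalling in germinal centre B cells, lay between 3.40 CPM (S10) and 1266 CPM (S5), with a median of 95.2 CPM. Fas, the death receptor of germinal centre cells, was lowest in S10 at 1.16 CPM and highest in S3 at 90.6 CPM. So the lymphoma with the highest level differed from gene to gene. The list with the largest median SD (1.64) was a short one of 7 genes of glucocorticoid response and steroid metabolism, whose median correlation was -0.07. Of the follicular B cell genes 7 of 16 reached an SD of 1, with a median correlation of 0.24. Of the memory and age-associated genes 6 of 12 did, with a median correlation of 0.42 (0.50 without S4 and S11). Cr2, the complement receptor of follicular and marginal zone B cells, was at 332 CPM in S8, 247 CPM in S12, 193 CPM in S10 and 149 CPM in S6, and at 0 to 22.8 CPM in the other 8. Tbx21, the transcription factor T-bet of age-associated B cells, was at 93.3 CPM in S1, 76.6 CPM in S11, 43.2 CPM in S8, 22.7 CPM in S4 and 16.1 CPM in S7, and at 0.163 to 1.77 CPM in the other 7. Its values split into these 2 ranges with nothing between them.

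Interferon genes varied strongly and, in the type I list, together. Of 28 type I interferon genes, 9 reached an SD of 1, and their median correlation was 0.53 (0.73 in the reference). Ifit3, an interferon-induced antiviral gene, was at 3.10 CPM in S1, 5.68 CPM in S3 and 8.38 CPM in S4, and at 28.2 to 63.7 CPM in the other 9. Ifit1 was low in S1 (1.89 CPM) and S4 (3.30 CPM) and at 12.4 to 31.5 CPM in the others. The list as a whole was lowest in S1, with a mean deviation of -1.12, followed by S3 with -0.62. Irf1, a transcription factor of the interferon gamma response, was at 5.46 CPM in S4 alone and at 44.0 to 124 CPM in the other 11, and Gbp2 was at 1.60 CPM in S4 and at 9.01 to 110 CPM elsewhere. Without S4 and S11 the median correlation of the interferon gamma list went from 0.34 to 0.08.

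Plasma cell genes varied together and were highest in 2 lymphomas. Of 15 plasma cell genes 5 reached an SD of 1, with a median correlation of 0.57, and the mean deviation of the list was 1.19 in S4 and 1.17 in S11. Prdm1, which drives plasma cell differentiation, was at 230 CPM in S4 and 147 CPM in S11, and at 7.90 to 68.5 CPM in the other 10. Xbp1, which expands the secretory apparatus, was at 890 CPM in S4 and 576 CPM in S11, and at 97.4 to 457 CPM in the others. S4 and S11 were thus the 2 highest for both genes. Without these 2 lymphomas, a pair chosen after the values were seen, 2 plasma cell genes reached an SD of 1 and the median correlation was 0.45. That of 16 endoplasmic reticulum folding genes went from 0.60 to 0.25. The germinal centre count went from 12 to 8.

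Genes of basic cell function varied least. Nucleolar genes had a median SD of 0.26, respiratory chain genes 0.24 and ribosomal protein genes 0.30. Of 24 B cell receptor signalling genes, 1 (4.17%, against 6.96% of all genes) reached an SD of 1, the inhibitory receptor gene Cd22. Their median SD was 0.41, against 0.34 for all genes. Trp53, the tumour suppressor p53, lay between 153 and 198 CPM (SD 0.11), and Myc between 140 and 278 CPM. Of 13 p53 target genes, 1 (7.69%) reached an SD of 1, and their median SD was 0.60, above that of all genes. That gene was Cdkn1a, the p21 cell cycle inhibitor, which lay between 9.22 CPM (S7) and 83.6 CPM (S5). Cdkn2a, the gene of the p16 and ARF tumour suppressors, was also highest in S5, at 99.9 CPM, and at 5.48 to 32.6 CPM in the other 11. The most variable p53 targets over all expression levels, Plk2, Phlda3 and Tnfrsf10b, had their highest values in S5 as well, at 47.8, 41.9 and 15.3 CPM, with medians of 0.464, 4.04 and 2.96 CPM. Over the whole list S5 did not stand alone, with a mean deviation of 0.51 against 0.53 in S11.

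**Figure D1:**
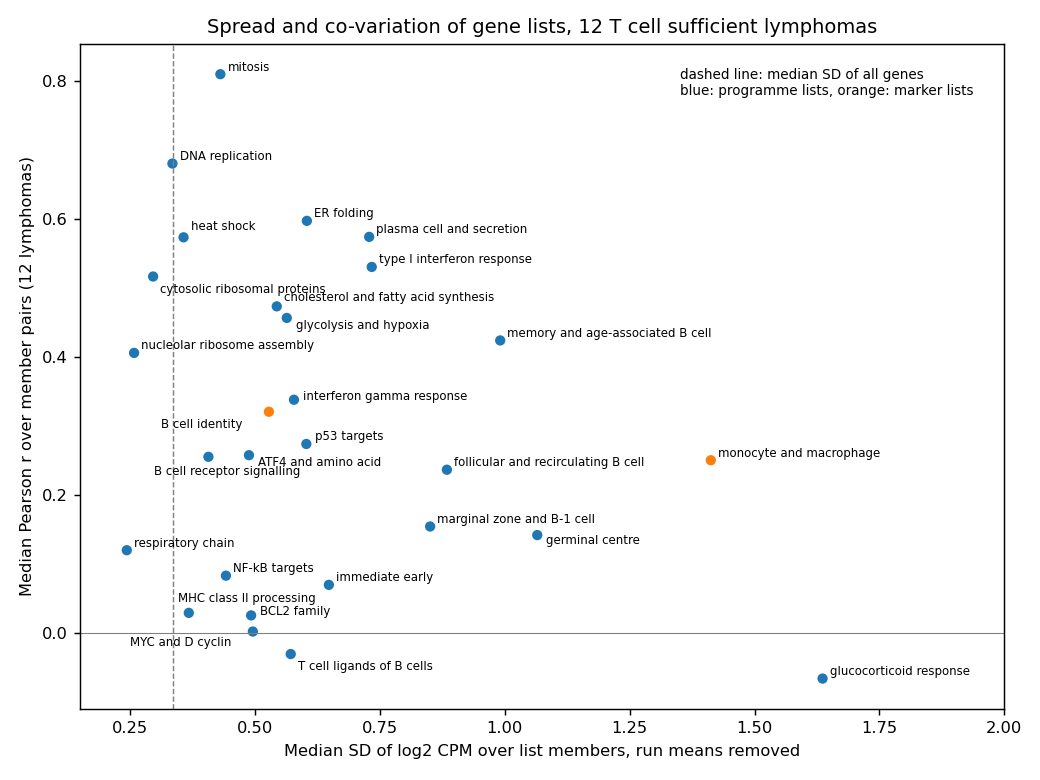
Median SD of log2 CPM of each gene list (x axis, log2 units) against the median Pearson correlation between its genes (y axis) over the 12 T cell sufficient lymphomas, run means removed, with 1 point per list and a dashed line at the median SD of all genes. Mitosis genes sit at an SD of 0.43 with a correlation of 0.81, germinal centre genes at 1.06 with 0.14.

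The 30 most variable genes, chosen by their SD and described here without a test, included receptors, secreted proteins and enzymes rather than B cell lineage genes (the plot of these genes by lymphoma). Their median SD was 2.80, and 19 of the 30 were at or under 3 counts in at least 1 lymphoma. Reln, an extracellular matrix protein, had the largest SD of all (4.10): it was at 806 CPM in S4, 269 CPM in S11, 159 CPM in S2 and 114 CPM in S1, at 0.183 CPM in S12 and 0.29 CPM in S8, and at 0 in S3. Cyp39a1, an oxysterol hydroxylase, was at 0 in S3 and S4, at 1.04 CPM in S11 and at 10.6 to 132 CPM in the other 9. Both genes thus ran from absent to abundant among tumours of 1 genotype.

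Receptors of the immune system were among the 30. Il5ra, the interleukin 5 receptor chain of B-1 cells and eosinophils, was at 325 CPM in S10, 257 CPM in S8 and 152 CPM in S12, between 29.4 and 95.4 CPM in S5, S6, S7 and S9, and at 0 to 7.46 CPM in S1, S2, S3, S4 and S11. Tnfrsf19 (TROY) was at 267 CPM in S5 and 128 CPM in S10, and at 0.289 CPM in S11. Lag3, an inhibitory receptor best known on T cells and plasma cells, was at 509 CPM in S4, 225 CPM in S11 and 169 CPM in S3, and at 2.07 to 47.3 CPM in the other 9. Its high values were again those of S4 and S11, with S3.

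Among the secreted proteins and enzymes, Spon1 was at 296 CPM in S4 and 318 CPM in S11 and at 1.16 to 28.2 CPM in the other 10. Chst1, a sulphotransferase of the Golgi, was at 595 CPM in S4 and 442 CPM in S11, followed by 157 CPM in S1. Wnt10a, a Wnt ligand, was at 205 CPM in S6 and 190 CPM in S9, and at 0 in S3. The 2 genes Spon1 and Chst1 had the same pair of highest lymphomas and Wnt10a another. Ggh, which trims folate side chains, was at 506 CPM in S6 and at 0.525 CPM in S7 and 0.541 CPM in S3. Cyp11a1, the first enzyme of steroid synthesis, was at 311 CPM in S7 and at 0.637 to 95.4 CPM elsewhere. Fras1, a basement membrane protein, lay between 2.43 CPM (S11) and 872 CPM (S10), with a median of 106 CPM, and in the reference lymphomas it did not exceed 24.1 CPM.

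S3 was the lowest lymphoma for 9 of the 30 genes and S12 for 5, while S4 and S6 were each the highest for 6. In the reference, which took no part in the choice, 27 of the 30 genes had an SD of at least 1, with a median of 2.03. An exception is Fbn2, which lay between 52.5 and 966 CPM in the reference but at 0.0725 CPM in S8, 0.0749 CPM in S7 and 0.488 CPM in S12, with 118 CPM in S5. The SD of Hook1 was 1.93 and that of Asns 1.08 without S3, and that of Mtap was 1.26 without S2, so that single lymphomas carried much of the spread of these 3 genes.

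**Figure D2:**
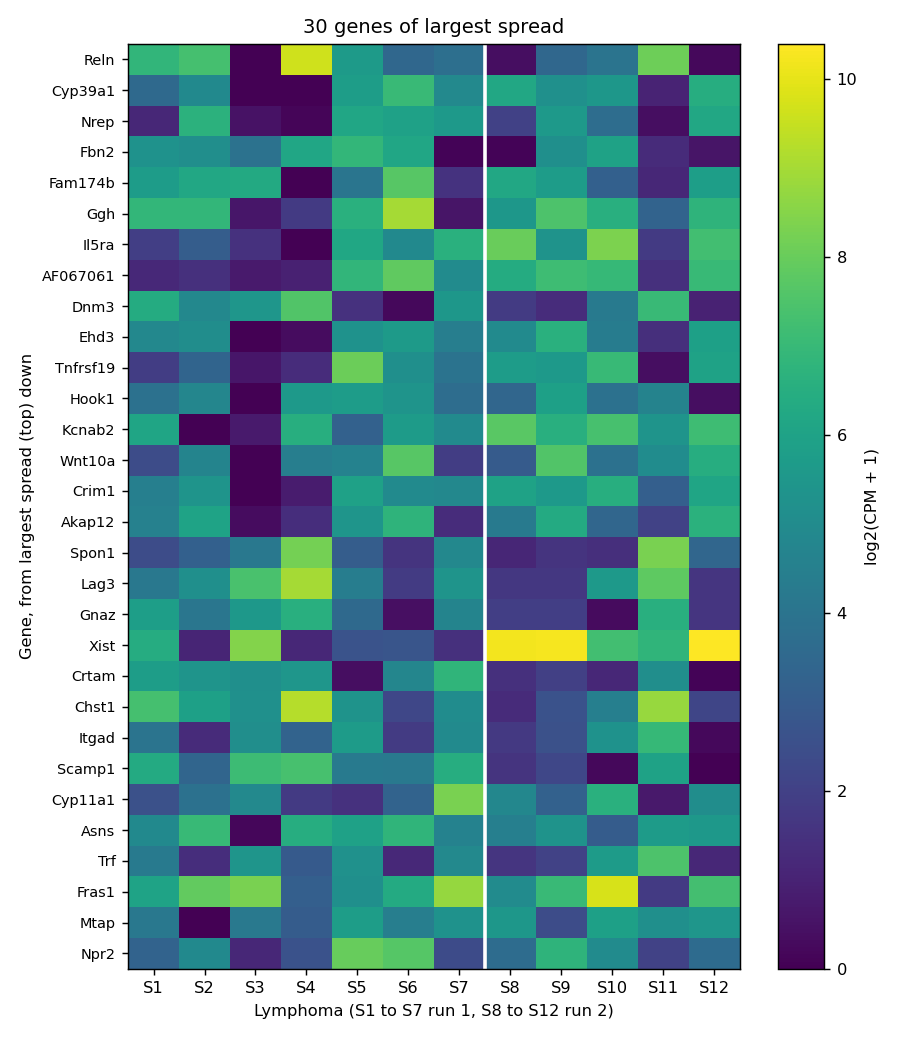
The 30 genes with the largest SD among the 12 lymphomas (rows) by lymphoma (columns), with colour for log2(CPM + 1) and a white line between the runs. Low values gather in S3 (lowest for 9 genes) and S12 (5 genes), high values in S4 and S6 (6 genes each).

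Some genes were far lower, or far higher, in a single lymphoma than in all the others. A gene was counted when 1 lymphoma lay at least 2 log2 units (4-fold) below, or above, every other one. Run means were not removed for this count. Of 10339 genes whose mean log2 CPM reached 1, 184 were low in this way and 32 high. Each gene of the table also exceeds 1 CPM in at least 7 libraries. These filters favour genes present in most lymphomas, so the 2 counts cannot show whether loss or gain was more frequent. S3 had 53 of the low genes, S4 had 37, S7 had 18, and S2 and S12 had 16 each, while S9 had 2. The reference showed both kinds too, with 211 low and 72 high genes, of which D6 alone had 103 and 49. Of the 184 low genes, 101 were at or under 3 counts and 52 at 0. S3 was also the shallowest library. The next-lowest lymphoma's level would have given at least 10 counts at the low library's own depth for 145 of the 184 genes, and for 31 of the 53 in S3.

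The genes low in S3 alone ranged from no count to a reduced level. Cd22, an inhibitory co-receptor of the B cell receptor, was at 5.68 CPM in S3 and at 172 to 1551 CPM in the other 11. Asns, asparagine synthetase, was at 0.135 CPM in S3 and at 7.11 to 128 CPM in the others. Trim32, a ubiquitin ligase, had 0 counts in S3, which allows a level of up to 0.405 CPM, and lay at 9.67 to 48.8 CPM elsewhere. Cd22 was thus reduced but well above the limit of 3 counts, while Asns and Trim32 were under it. F8a was likewise at 0 in S3 against 15.1 to 51.6 CPM. The cyclin gene Ccnd2 was at 28.8 CPM against 184 to 669 CPM, and the fatty acid receptor gene Cd36 at 2.70 CPM against 89.5 to 1897 CPM.

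In S2, Mtap, an enzyme of methionine salvage next to the Cdkn2a locus on chromosome 4, was at 0 and in the other 11 at 4.34 to 58.4 CPM. Its neighbours were present in S2: Cdkn2a was at 5.48 CPM, the lowest of the 12, and Cdkn2b at 17.4 CPM, the highest. In S5, Cmah, which makes the sialic acid that human cells lack, was at 3.64 CPM against 78.1 to 582 CPM. In S12, the adhesion molecule gene Epcam was at 0.427 CPM against 9.93 to 214 CPM. For most of these losses the neighbouring genes kept their level: the 184 genes had a median deviation of -4.06 log2 units from the run median, while that of their nearest neighbours was -0.10.

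Of the genes high in a single lymphoma, S5 held 8. Its Zap70, a kinase of T cell receptor signalling that some B cell tumours express, was at 129 CPM against 0.0688 to 19.4 CPM, and Cd70, a ligand for the T cell receptor CD27, was at 95.8 CPM against 0.797 to 18.6 CPM. In the reference the medians were 92.9 CPM for Zap70 and 54.9 CPM for Cd70. Beside these values, S5 had the highest neutrophil and erythroid marker sums of the 12, at 87.9 CPM (0.924 to 39.4 CPM in the others) and 188 CPM (20.4 to 167 CPM), from 6 of 14 and 10 of 14 listed genes measured. Its 5 measured markers of NK and cytotoxic cells (of 11 listed) summed to 23.8 CPM, within the range of the others (1.89 to 40.8 CPM), and had the highest mean deviation of the 12 (2.14). Cd3e was at 1.37 CPM in S5. The part of these cells in its Zap70 and Cd70 levels was not tested. In S1, the protease inhibitor gene Slpi was at 1239 CPM against 0.396 to 43.1 CPM, and the integrin gene Itgam at 372 CPM against 4.18 to 74.6 CPM. In S10, Il2ra, the interleukin 2 receptor alpha chain, was at 94.9 CPM against 0.405 to 18.0 CPM. In S11, the receptor kinase gene Axl was at 372 CPM against 12.0 to 84.7 CPM, and S11 also had the highest Csf1r and C1qa of the 12.

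Lymphomas S4 and S11 stood apart on the first principal component, and other lymphomas on later ones. The first principal component of the 1000 most variable genes held 30.2% of their variance and placed S4 and S11 at one end, with scores of -34.2 and -46.0, and S6 at the other, with 30.8. The second held 17.7% and ran from S7 (-28.8) to S5 (23.4). The third held 12.0% and the fourth 10.5%. On the third, S3 lay alone at -34.0. The 2 lymphomas S4 and S11 were sequenced in different runs.

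Among the 500 most variable genes, 292 fell into 18 clusters of at least 10 genes whose members varied together, at an average-linkage Pearson distance of 0.4 (the plot of cluster means). These correlations describe the 12 lymphomas from which the clusters were built, and they are given as descriptions. The same gene pairs were also described in the 11 reference lymphomas: in 5 of the 18 clusters their median correlation there was at least 0.30.

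The largest cluster (41 genes, led by Slc28a2, Mrgpre, Sema7a, Trim40 and BC028528) held Ebf1, a transcription factor that keeps B cells in their lineage, and was low in S4 and S11, with mean deviations of -2.53 and -2.63 log2 units from the run mean. Ebf1 itself was at 23.5 CPM in S4 and 13.9 CPM in S11, and at 85.9 to 214 CPM in the other 10. The median correlation in this cluster was 0.75 over the 12 lymphomas, 0.62 without S11 and 0.27 without both S4 and S11, and 0.15 in the reference.

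A cluster of 26 genes was high in S4 and S11 and lowest in S6 (mean deviation of -2.44). It was led by Dnm3, Hsd11b1, Chst1, Bcl2a1d and Sec24d and included the plasma cell genes Prdm1 and Sdc1. Its median correlation was 0.78, and 0.68 without S4 and S11, but 0.08 in the reference. A further cluster of 15 genes, led by Hivep3, Ppt2, Tspan2, Lag3 and Tigit, also held Ctla4 and Spon1. Its mean deviation was 2.01 in S4, 2.43 in S11 and -2.14 in S6. Ctla4, an inhibitory receptor best known on T cells, was at 596 CPM in S4, 150 CPM in S3 and 115 CPM in S11, and at 3.60 to 111 CPM in the other 9. Pdcd1 (PD-1) was at 127 CPM in S4, 72.6 CPM in S3 and 58.2 CPM in S11, and at 0.122 to 32.5 CPM in the others. Beside these inhibitory receptors, Cd3e was at 0.377 CPM in S4 and at 0 in S3 and S11, while Cd28 was at 66.2 CPM in S4, 18.6 CPM in S11 and 1.22 CPM in S3.

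Macrophage genes formed a cluster of their own. It held 27 genes, led by C1qc, Csf1r, C1qa, Lrp1 and Vcam1, of which 7 belong to the macrophage list. Its median correlation was 0.85 (0.80 without S4 and S11, and 0.71 in the reference). Its mean deviation was 2.54 in S11, 1.41 in S5 and -1.41 in S8. Csf1r, the receptor on which macrophages depend, was at 427 CPM in S11 and at 17.2 to 126 CPM in the other 11. In S4 it was at 30.9 CPM, so the pair that stood together for plasma cell genes did not share a high macrophage cluster. Lyz2 took another order, with 543 CPM in S11, 454 CPM in S12 and 23.1 to 153 CPM elsewhere. Over the whole macrophage list the median correlation was 0.25.

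Some clusters had their extreme values in 1 lymphoma and others in several. One of 20 genes (led by F8a, Serpini1, 2700089E24Rik, Trim32 and Arhgap24) had a mean deviation of -4.48 in S3; its median correlation was 0.76, and 0.02 without S3. One of 15 genes, led by Cyp39a1, Ypel2, Dock10, Crim1 and Tnfrsf19, was low in S3, S4 and S11 and high in S5 and S6, with a median correlation of 0.71 or more without any 1 lymphoma and of 0.40 in the reference. A cluster of 20 genes led by Ppm1h, Gatm, Ptpn13, Bcat1 and Zak was highest in S11 (mean deviation of 2.86), its median correlation was 0.70 and 0.50 without S11, and 7 of its genes lie on chromosome 10. One cluster of 17 genes (led by Cobll1, Enox2, Lipo1, Kynu and Gm14446) held the interferon-induced genes Ifit1, Ifit2, Ifit3, Gbp2, Gbp3 and Gbp6. Its mean deviation was -2.20 in S1 and -2.10 in S4, with a median correlation of 0.72, of 0.65 or more without any 1 lymphoma, and of 0.22 in the reference. Of its 11 genes with a matched promoter, 4 (36.4%) had a response element core, against 3.32% of all matched genes. Among them are Ifit1, Ifit3 and Gbp2, whose windows are shown above.

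**Figure D3:**
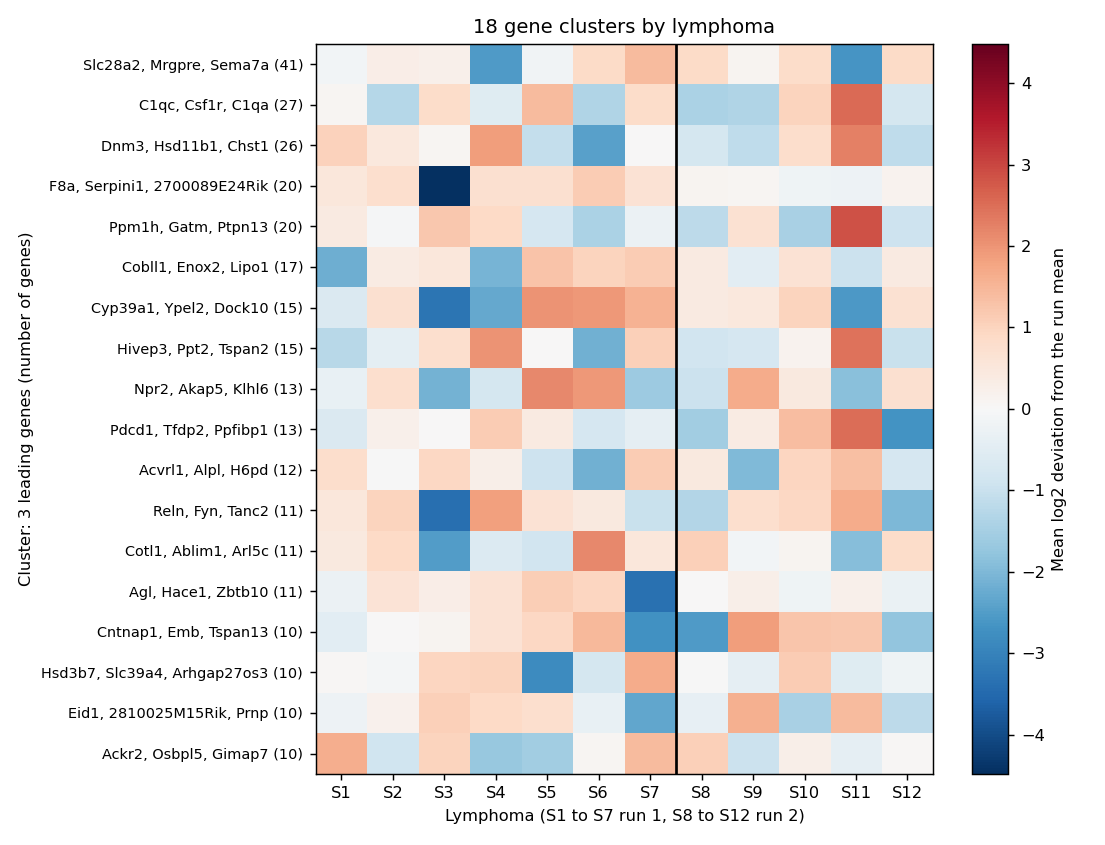
Mean log2 deviation from the run mean (colour) of the 18 clusters of co-varying genes (rows, named by 3 leading genes with the number of genes) in each of the 12 lymphomas (columns). S4 and S11 share low values in the top row and high values in the rows led by Dnm3 and Hivep3, and S3 has the lowest value of the row led by F8a.

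Genes that vary with a chosen gene were tested by regressing every other gene on its level. The chosen genes were Bcl6, Tnfsf9, Mki67, Tbx21, Ifit3 and Lyz2, and a slope describes variation together, not regulation. The slope is the change in log2 CPM per log2 unit of the chosen gene's level, with the sequencing run as a covariate (edgeR's quasi-likelihood test, Benjamini-Hochberg adjustment over 10983 genes). Bcl6, the oncogene of this model, was at 1797 CPM in S11 and 1056 CPM in S4 and at 300.0 to 513 CPM in the other 10. No source used here says whether this count includes transcripts of the transgene. With Bcl6, 55 genes (0.501%) rose and 14 (0.127%) fell at an adjusted p under 0.05, and 1692 had an unadjusted p under 0.05. DESeq2 called 344 higher and 336 lower, and with Xist as a covariate edgeR called 17 higher and 17 lower.

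The genes that rose most clearly with Bcl6 were Tcf7l2, Hap1, Ninj1, Zfp280b and Ctsb. Tcf7l2, a transcription factor of Wnt signalling, was at 40.3 CPM in S11 and 19.4 CPM in S4 and at 0.435 to 2.94 CPM in the other 10, so these 2 lay above all the others. Its slope was 2.45 ± 0.24 (SE, n = 12, adjusted p = 0.00341), and -0.82 with an adjusted p of 0.973 in the reference. Ctsb, the lysosomal protease cathepsin B, was at 1855 CPM in S11, 1506 CPM in S4 and 266 to 933 CPM elsewhere (slope 0.92 ± 0.13). Of 18 plasma cell genes, 2 rose, Derl3 and Txndc5, both of which act on proteins in the endoplasmic reticulum, and 10 had a positive slope at an unadjusted p under 0.05, against 9.24% of all genes. Txndc5 was at 9233 CPM in S4, 4939 CPM in S11 and 475 to 1604 CPM in the others. These 2 genes, and the other members of lists named here, were picked out after their values were seen. Of 16 endoplasmic reticulum folding genes none passed the adjusted test and 12 were positive at an unadjusted p under 0.05.

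Among the genes that fell with Bcl6 were Pik3c2b, Rapgef6, Akap13, Sipa1 and Ebf1. Ebf1 had a slope of -1.55 ± 0.26 (adjusted p = 0.0312), with its 2 lowest values in S4 and S11. Rapgef6, Sipa1 and Akap13 all act on small GTPases, and Pik3c2b is a lipid kinase. Prdm1, a direct repression target of BCL6 in germinal centre B cells, had its 2 highest values in the 2 lymphomas with the highest Bcl6, and its slope did not pass (adjusted p = 0.0548). Neither did those of Pdcd1 (0.0531), Ctla4 (0.0535), Lag3 (0.0612) or Xbp1 (0.0925).

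The Bcl6 calls depended on single lymphomas. Without S4 no gene was called, and without S11 none. Some slopes stayed about as large: that of Tcf7l2 was 2.35 without S4 and 2.58 without S11, and that of Pik3c2b -0.57 and -0.62, against -0.60 with all 12. Others moved more: that of Ninj1 was 0.64 and 0.91 against 0.74, and that of Hap1 1.43 and 2.31 against 1.80. The slope of Ebf1 was -1.46 without S4 and -1.10 without S11, against -1.55. Without S8 there was 1 call and without S9 there were 9, without S12 there were 13 and without S1 there were 129. Of 19 macrophage markers, 13 had a positive slope on Bcl6 at an unadjusted p under 0.05 and none passed the adjusted test. With Lyz2 as a covariate 2 genes were called in place of 69, while the slopes kept their size: that of Tcf7l2 was 2.45, that of Hap1 1.79 against 1.80 and that of Ctsb 0.92 (adjusted p of 0.0178, 0.0562 and 0.0562). The part of other cells in this result was not tested further. In the reference, where Bcl6 lay between 366 and 983 CPM, the slopes of these 10 genes that rose or fell most clearly lay between -2.86 and 0.27, with adjusted p-values of 0.907 or more. For no gene did the slopes differ between the groups at an adjusted p under 0.05 (edgeR, with 777 genes at an unadjusted p under 0.05).

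Tnfsf9 encodes CD137 ligand (4-1BBL), a surface protein through which B cells stimulate T cells. It was at 158 CPM in S5 and at 4.71 to 36.9 CPM in the other 11, and at 83.4 to 157 CPM in the reference. Erythroid and neutrophil markers, whose sums were highest in S5, went with it: 7 of 10 erythroid and 3 of 4 neutrophil genes had a positive slope at an unadjusted p under 0.05 (3.77% of all genes), none passed the adjusted test, and their part in this result was not tested. One gene of 10983 (0.0091%) rose with it (1041 had an unadjusted p under 0.05, and DESeq2 called 93 that rose and 114 that fell), Cd70, which lies beside Tnfsf9 on chromosome 17 (57145997 to 57149777 against 57105325 to 57107757, GRCm38). The slope of Cd70 was 1.26 ± 0.10 (adjusted p = 0.000566), and 0.34 ± 0.31 with an adjusted p of 0.714 in the reference. Without S5 it was 1.29 but did not pass (adjusted p = 0.263), and no gene was called. Without S2 there were 2 calls, without S7 there were 3 and without S12 there were 7. Among the 16 other genes for T cell ligands on B cells, Cd70 was the 1 called. For 1 of 11139 genes (0.00898%), Cd53, the slope on Tnfsf9 differed between the groups, at -0.32 here and 1.93 in the reference. Of 24 B cell receptor signalling genes none was called and 9 had a negative slope at an unadjusted p under 0.05, against 5.71% of all genes.

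With Mki67, the proliferation marker, 4 genes (0.0364%) rose and none fell (1265 at an unadjusted p under 0.05): Ska3, Bub1b, Aurka and Hmmr, the last of which binds the mitotic spindle. Mki67 itself lay between 311 CPM (S3) and 1402 CPM (S9). Bub1b was lowest in S10 at 73.1 CPM and in S8 at 85.0 CPM, and at 125 to 222 CPM in the other 10 (slope 0.94 ± 0.12, adjusted p = 0.0387). Ska3 and Aurka were lowest in the same lymphomas, S10 and then S8. Ska3 was at 12.4 CPM in S10 and 17.0 CPM in S8, and Aurka at 28.3 CPM in S8. In the other 10 Ska3 was at 23.1 to 46.2 CPM and Aurka at 50.2 to 85.0 CPM. Of 30 mitosis genes, 3 were called, and 29 had a positive slope at an unadjusted p under 0.05, against 6.2% of all genes. Their median slope was 0.73, against 0.01 for all genes. Of 29 DNA replication genes none was called, 17 were positive at an unadjusted p under 0.05, and the median slope was 0.45. The slopes moved little when 1 lymphoma was left out (0.90 to 0.95 for Ska3 and 0.88 to 1.03 for Bub1b), but the calls did: 2 genes were called without S7 and none when any of the other 11 lymphomas was left out, nor with the library total, Xist or Lyz2 as a covariate, whereas DESeq2 called 229 that rose and 144 that fell.

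With Ifit3, 1 gene (0.0091%) rose, where DESeq2 called 55 that rose and 19 that fell and 621 had an unadjusted p under 0.05. It was I830012O16Rik, the near-identical neighbour of Ifit3 now called Ifit3b, for which reads could have been shared between the copies (slope 0.97 ± 0.11, adjusted p = 0.012). In the reference it was called too (slope 1.16 ± 0.11, adjusted p = 0.006), as 1 of 14 genes. Of 30 type I interferon genes none other passed, 19 were positive at an unadjusted p under 0.05, against 3.05% of all genes, and all 30 slopes were above 0, with a median of 0.36. Without S1 or S5 no gene was called, without S3 there were 3 and without S7 there were 2. No gene passed with Tbx21 or Lyz2. With Tbx21, 1143 genes had an unadjusted p under 0.05 and DESeq2 called 178, and with Lyz2 these counts were 645 and 45. Without S8, 5 genes were called with Tbx21, and with Lyz2 1 gene was called without S4 and 2 without S5.

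**Figure D4:**
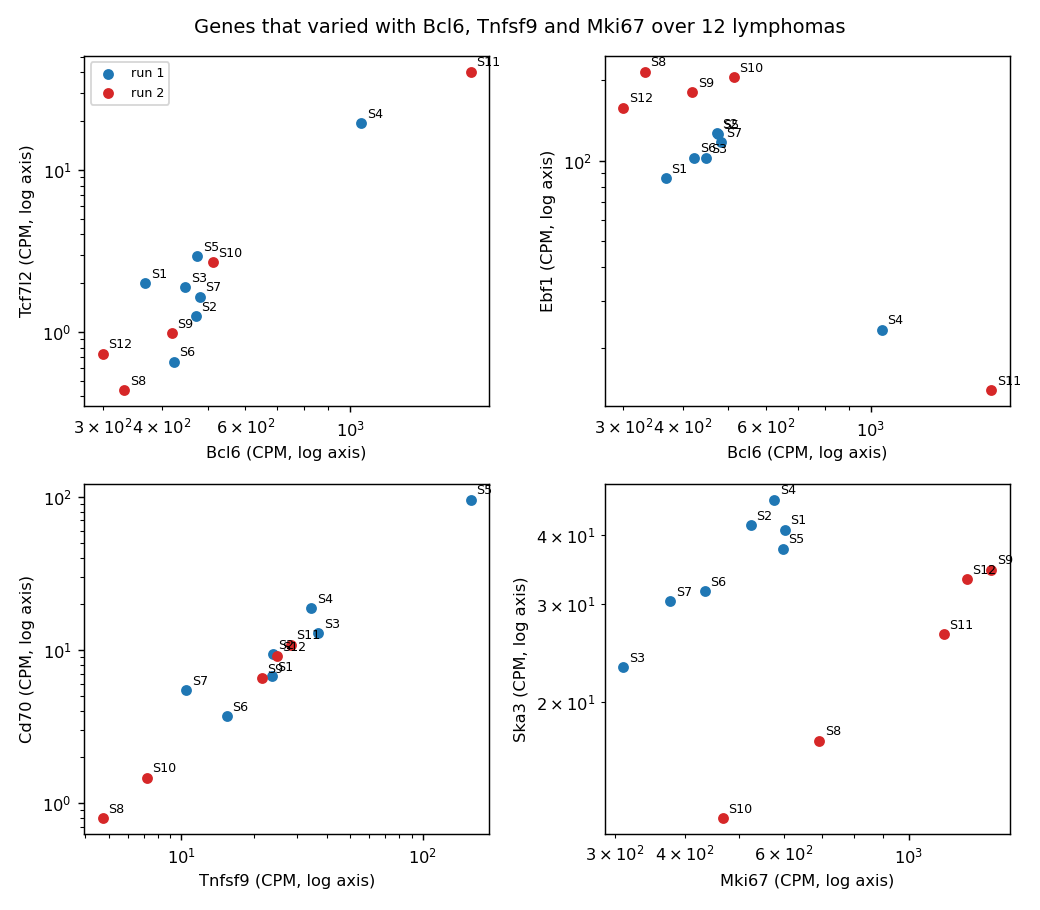
CPM of Tcf7l2, Ebf1, Cd70 and Ska3 (y axes, log scale) against the CPM of the chosen gene (x axes, log scale) in the 12 lymphomas, with 1 point per lymphoma and colour for the run. S4 and S11 lie far from the other 10 on the Bcl6 axis and S5 on the Tnfsf9 axis, and for Ska3 the points follow Mki67 within each run.

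Neighbouring genes on a chromosome varied together in some lymphomas. The median correlation over the 12 lymphomas was 0.29 for adjacent genes, 0.15 for genes 25 apart on the same chromosome and -0.01 for genes on different chromosomes. In the reference it was 0.20, 0.07 and 0.00. Segments were then marked in each lymphoma where the running median of 25 genes lay at least 0.4 log2 units from the median of its run, a rule chosen after the data were seen. There were 27 such segments, 21 higher and 6 lower. S7 had 14 of them and S4, S5, S6, S8 and S9 none. The reference had 17, in 4 lymphomas, all higher.

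The strongest segment covered chr2:3284212-43682715 (GRCm38) in S10. Its 200 genes lay 2.67-fold above the run median, and S10 was the highest of the 12 lymphomas for 173 of them, against 11.8% of all genes. It ended sharply: Kynu, its last gene, deviated by 0.76 log2 units and the next gene, Arhgap15, by 0.01. The 25 flanking genes had a median deviation of 0.00. Il2ra, high in S10 alone, lies inside this segment on chromosome 2.

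In S7, 72 genes at chr4:147822986-156247616 had a median deviation of -0.81 and 109 genes at chr8:79683462-105701102 one of -0.85, and S7 was the lowest of the 12 for 54 and 82 of them. In the same lymphoma 77 genes at chr5:113742446-122382902 had one of 0.86. They include Dtx1, a regulator of Notch signalling, which was at 849 CPM in S7 and at 161 to 500.1 CPM in the other 11. In S3, 253 of 254 measured genes of the X chromosome lay in 1 segment, with a median deviation of 0.61. In S7, 2 segments held 165 and 81 genes of the X chromosome, with median deviations of 0.69 and 0.52. Of the 184 genes low in a single lymphoma, 2 lie in a lower segment of that lymphoma. Lower segments were marked only in S7 and S12, which had 18 and 16 of the 184. Genes low in the other lymphomas could therefore not be counted. Of the 32 high genes, 3 lie in a higher segment of their own lymphoma. The share of all genes in such segments was not computed, so these counts do not show whether the 2 features go together. Tumour DNA was not analysed here.

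**Figure D5:**
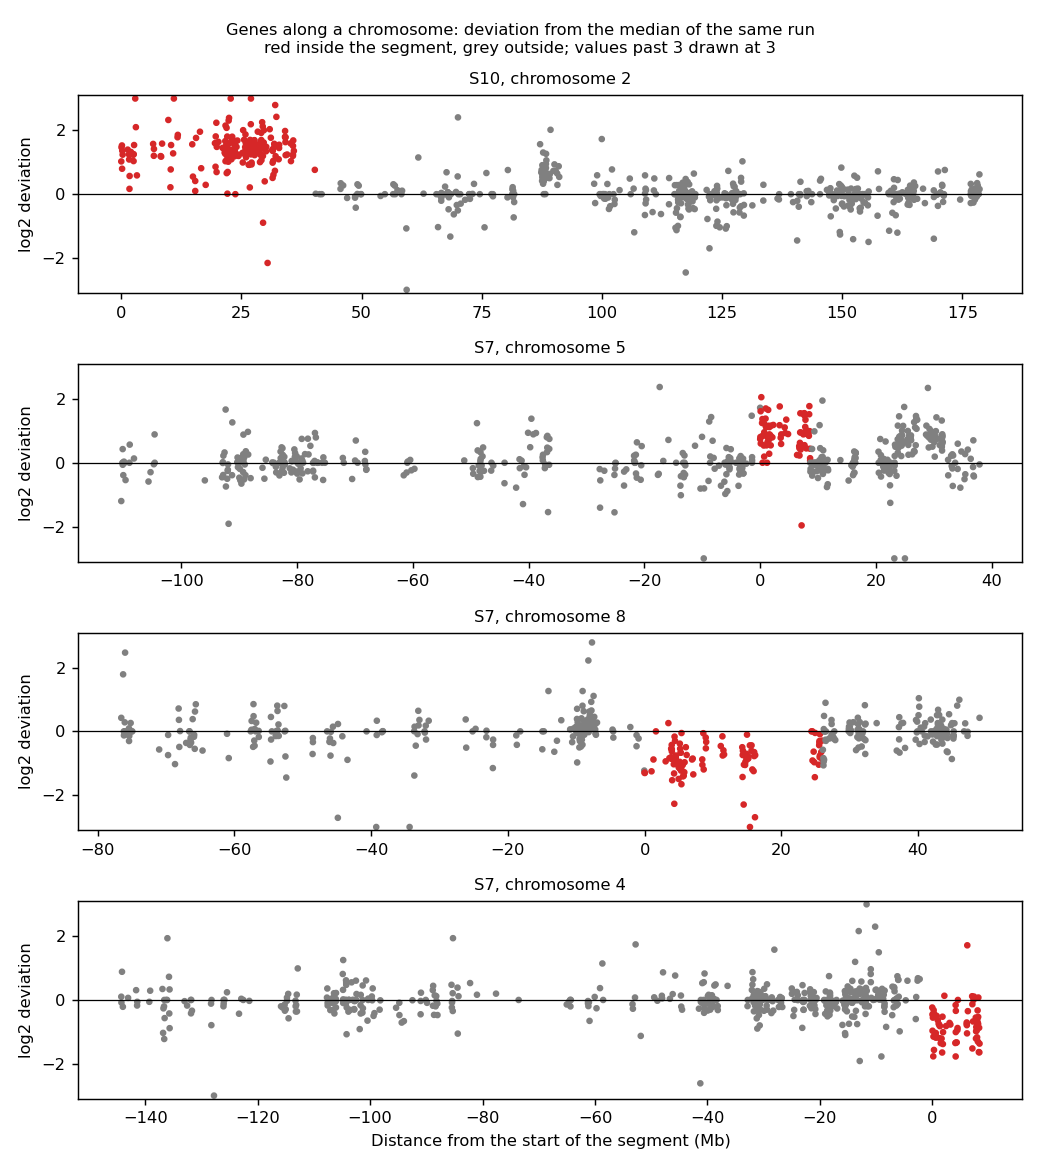
Log2 deviation of each gene from the median of its run (y axis, 1 point per gene) against the distance from the start of the segment in Mb, for 1 segment in S10 and 3 in S7; red points lie inside the segment and values past 3 are drawn at 3. On chromosome 2 of S10 the 200 red points centre on 1.42 and the points after them on 0.

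Spread was also compared between the 12 lymphomas and the 11 reference lymphomas, by testing the absolute deviation of each lymphoma from the mean of its group and run (limma with empirical Bayes moderation). Of 8601 genes tested, 2 (0.0233%) had a larger spread among the T cell sufficient lymphomas and 2 (0.0233%) among the reference, at an adjusted p under 0.05. At an unadjusted p under 0.05 these counts were 865 and 399. Cdk6, a kinase that drives entry into the cell cycle, lay between 6.74 CPM (S8) and 98.0 CPM (S5) among the 12, with a median of 24.8 CPM, and between 49.2 and 76.9 CPM in the reference. Its SD was 1.08 against 0.20 (adjusted p = 0.044). Zbtb34, a zinc finger gene, was at 81.0 CPM in S11, 49.1 CPM in S10 and 47.6 CPM in S4 and at 11.9 to 21.4 CPM in the other 9, with an SD of 0.85 against 0.12 (adjusted p = 0.0167).

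In the other direction, Cyb561a3 and Grap2 were steadier among the 12 lymphomas. Grap2, an adaptor of antigen receptor signalling, lay between 63.3 and 177 CPM here and between 0.146 and 153 CPM in the reference (SD 0.40 against 2.57, adjusted p = 0.0437). Cyb561a3, a lysosomal ferric reductase, lay between 254 and 712 CPM, and between 21.3 and 529 CPM in the reference (SD 0.37 against 2.03, adjusted p = 0.0167). Over all genes tested, 58.8% had a smaller fitted absolute deviation in the reference. The median SD was 0.330 here and 0.288 there. Of 31 mitosis genes, 30 had the smaller fitted deviation in the reference, and of 22 germinal centre genes 15 did (median SD of 1.06 against 0.69). Type I interferon genes went the other way, with a smaller fitted deviation in the reference for 2 of 27. These are counts over genes that vary together, and none was tested as a list. The count of 4 called genes moved when 1 lymphoma was left out. It was 7 to 18 without 1 of the 12, 0 without D2, 1 without D10, 7 without D11, 10 without D6, 20 without D9 and 22 without D7, and 4 to 6 without 1 of the other 5.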

How the data were processed

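RNA of purified splenic B lymphoma cells was isolated with Qiagen RNeasy Mini kits and made into TruSeq RNA libraries, per the labels' protocols. The authors deposited 1 table of 11140 genes with read counts and CPM for 23 libraries, beside log2 fold changes, p-values and FDR of their own comparison of the groups, which the authors made per the file headers and which were not used. Each gene of it exceeds 1 CPM in at least 7 libraries. The deposited CPM values were not used, since CPM was recomputed from the counts. The submitters' processing notes name mm10, GRCm38 and limma, and no source used here gives the aligner, the counter or the strand setting. The column of S1 does not say whether it holds 1 or both libraries of that lymphoma, and the column of S4 was matched by its number, with another suffix than the label.

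The members and gene lists were chosen with earlier results of these data known. Counts were scaled by TMM over the 23 libraries (edgeR 4.0.16, R 4.3.3) and filtered with filterByExpr, and the printed CPM values are so scaled. Log2 CPM used a prior count of 2. Slopes were tested with edgeR's quasi-likelihood test (robust), spread with limma 3.58.1 on absolute deviations, each with Benjamini-Hochberg adjustment over all genes tested at 0.05. DESeq2 1.42.0 was an alternative. Both tests were tested on simulated data, where the spread test called somewhat more false genes than its threshold states. Replicate numbers do not pair the groups. All values without both S4 and S11 were added after the data were seen. Positions are from GENCODE M21 (GRCm38), found for 10644 symbols. Genes named were the most variable of all, per list and per lymphoma, the leading genes of each cluster and called set, and a few chosen after their values were seen. The result for 1 marker gene is not reported here.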

Additional observations from a re-analysis of the deposited data

Results flagged for a closer look

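The slope of Cd53 on Tnfsf9 differed between the groups, by a test of the difference itself. Cd53 encodes a tetraspanin of leukocytes. Its slope on Tnfsf9 (CD137 ligand) was -0.32 among the 12 T cell sufficient lymphomas and 1.93 among the 11 T cell deficient ones, a difference of 2.25 log2 units per log2 unit of Tnfsf9 (edgeR's quasi-likelihood test of the interaction, adjusted p = 0.00311 over 11139 genes). It was the 1 gene called over the 6 chosen genes on which slopes were tested. Cd53 lay between 210 and 726 CPM among the 12, with S5, the lymphoma with the highest Tnfsf9, at 210 CPM. In the T cell deficient lymphomas Cd53 lay between 52.2 and 281 CPM, and Tnfsf9 in the narrower range of 83.4 to 157 CPM. No alternative setting was run for this difference.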

How the results depend on the processing

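No slope or difference of spread of the called genes followed by name changed its sign under any alternative that was run. The main results, such as counts of genes, have no sign to change. They stayed within 1.5 times of their value in 107 alternatives and moved further in 69. The number of genes with an SD of at least 1 stayed within 1.5 times of 620, from 533 to 647 over the fits without 1 lymphoma, and the 18 clusters numbered 14 to 20. The calls of slopes, more than the slopes, depended on single lymphomas: over the fits without 1 of the 12 there were 0 to 129 calls with Bcl6, 0 to 7 with Tnfsf9, 0 to 2 with Mki67, 0 to 5 with Tbx21, 0 to 3 with Ifit3 and 0 to 2 with Lyz2. DESeq2 called 680, 207, 373, 178, 74 and 45 in this order. With Xist as a covariate there were 34 calls with Bcl6 (17 rose and 17 fell, against 55 and 14), 0 with Mki67, 0 with Ifit3 and 1 with Lyz2. With Lyz2 as a covariate there were 2 with Bcl6 and 0 with Mki67, and with the library total 0 with Mki67. Without the filter on low counts, 4 genes were called with Tbx21. The 4 genes of unequal spread became 56 over all genes kept, 0 with squared deviations, 9 with the library total, 1 in run 1 alone and 0 in run 2 alone, and 0 to 22 without 1 lymphoma. With the replicate number as a block there were 25. Numbers in the labels do not pair the samples (correlations of -0.28 to 0.32, 3 of 11 over 0.1). The 27 segments became 54 with a window of 15 genes and 65 at a threshold of 0.3, both chosen after seeing the data. The cause of these changes was not tested. Depth limits genes near 3 counts, most of all in S3.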
